A study of Homo sapiens with 6 samples.

Results

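The IFIT family (interferon-induced proteins with tetratricopeptide repeats) was followed through 4 genes, IFIT1, IFIT2, IFIT3 and IFIT5, of the 20802 genes measured in MCF10A cells. The 4 symbols were taken as a list, and they were chosen with their read counts in MCF10A GIRK1 and the control libraries already known. Their differences between MCF10A GIRK1 and the controls are therefore given as a description, with standard errors and without p-values. All 4 passed the filter on low counts, and with this choice that count supports nothing by itself.

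MCF10A cells are a benign, established line of human mammary epithelium. Transcripts were measured by Ion AmpliSeq amplicon sequencing, which counts the reads of 1 short stretch of cDNA for each gene, in 6 libraries of 3 groups with 2 replicates each. The libraries labelled MCF10A WT are by their titles those of the parental line, though the label of replicate 1 is in doubt, as described below. MCF10A eGFP carried the empty bicistronic eGFP vector, and MCF10A GIRK1 carried the same vector with the coding sequence of human GIRK1, a potassium channel subunit encoded by KCNJ3. Both transfected lines were stable, were selected with G418 and were sorted on eGFP fluorescence, a treatment that the parental line did not share. The series is described once as 2 lines with and 2 without the channel and once as 2 replicates, so the spread between replicates may be technical.

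IFIT proteins are made in response to type I and type III interferon. Secreted interferon binds its receptors, the kinases JAK1 and TYK2 become active, and STAT2 and IRF9 enter a complex called ISGF3, which binds a DNA element called the interferon-stimulated response element upstream of its targets. IFIT1 binds RNA whose cap lacks a methyl group that host messengers carry and blocks its translation, IFIT2 and IFIT3 form complexes with it, and IFIT5 binds RNA with a 5′ triphosphate.

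Library totals ran from 2506120 to 16040556 reads, so that 3 reads, taken as the limit of detection, stood for 0.187 to 1.20 RPM (each count divided by the library total and scaled to a fixed total). These limits and all intervals cover counting error only. KCNJ3 had 2408 and 3677 reads in the MCF10A GIRK1 libraries and 0 in both MCF10A eGFP libraries and in WT replicate 2, at least 489-fold higher by the mean against 3 reads in the shallower eGFP library. It had 48 reads in WT replicate 1. WT replicate 1 stood apart from the other 5 libraries: its 12 basal mammary epithelial markers summed to 416 RPM, against 16124 to 36609 RPM elsewhere, and its 12 luminal markers to 19404 RPM, against 531 to 1029 RPM. The basal keratin gene KRT5 had 2 reads there and the luminal gene TFF1 12796. Of the 12 basal markers, 6 were above 3 reads there, against 11 in each of the other 5 libraries. Most of its basal sum was ITGB4, with 836 reads (334 RPM). The label of this library is in doubt. It was therefore shown apart, as the library labelled WT replicate 1, and the fits used the other 5 libraries. The 11 immune cell markers summed to 7.79 to 25.6 RPM in those 5 libraries, with 2 or 3 of them above 3 reads in each. The sums were 17.0 and 13.0 RPM in MCF10A GIRK1, within the range of the 3 controls, and most of each was CD14, with 111 to 214 reads, while PTPRC had 0 reads in every library. These marker genes were named after their values were seen. The deposited names place both MCF10A GIRK1 libraries under a tag that the other 4 do not carry; should it stand for a run of the sequencer, its part and that of the condition cannot be told apart.

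The 4 genes lie side by side on the plus strand of chromosome 10 (GRCh38, GENCODE annotation). IFIT2 spans chr10:89283694-89309276, IFIT3 chr10:89327894-89340971, IFIT1 chr10:89392546-89406486 and IFIT5 chr10:89414586-89421001. IFIT1B, a further family gene, lies between IFIT3 and IFIT1 at chr10:89378056-89385205. Over the coding sequence, IFIT2 and IFIT3 shared 73.8% of their aligned bases, the highest among the 4 genes, and IFIT2 and IFIT5 shared 64.6%, the lowest. IFIT1 shared 79.7% with IFIT1B.

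The IFIT1 amplicon is shown because the IFIT1 values below rest on it. It covers bases 160 to 259 of the transcript, in exon 1 (chr10:89392705-89392717) and exon 2 (chr10:89402281-89402367), with 8 bases of the 5′ UTR and 92 coding bases; the start codon is in capitals.
IFIT1 amplicon: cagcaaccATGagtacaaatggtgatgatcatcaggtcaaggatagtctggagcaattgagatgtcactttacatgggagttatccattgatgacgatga
By the deposited positions, the amplicons of the other 3 genes also held the start codon and the junction of the first 2 exons. Their GC content differed from that of the GENCODE transcript at these positions, so these positions are approximate. The nearest other transcript to the IFIT1 amplicon was that of IFIT1P1, a pseudogene, with 82 of 100 bases identical. For the stretches at the approximate positions of IFIT2, IFIT3 and IFIT5 the nearest other gene shared 48, 32 and 31 bases. These counts do not settle how specific those 3 amplicons are. The IFIT3 amplicon was defined on the transcript whose first exon starts at 89332484. By the deposited positions, part of it lies in that exon, at chr10:89332557-89332627. A further IFIT3 transcript has another first exon, chr10:89327894-89328078, which does not hold this part. The IFIT3 counts are therefore read as those of the transcript starting at 89332484, and the further transcript was not measured.

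Stretches upstream of the start sites are shown because the ISGF3 element belongs to the pathway to which these genes respond. In each, matches to the core of that element, GAAANNGAAA or its reverse complement TTTCNNTTTC, are in capitals. The sequences are from RefSeq (GRCh38.p14), on the plus strand, and IFIT1B is given for comparison. The table used has no entry for IFIT2.
IFIT1, chr10:89392492-89392544: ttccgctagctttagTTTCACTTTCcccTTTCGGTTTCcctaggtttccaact
IFIT3, first start, chr10:89327826-89327899: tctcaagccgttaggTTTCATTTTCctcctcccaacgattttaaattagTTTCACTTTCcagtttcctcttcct
IFIT3, second start, chr10:89332420-89332502: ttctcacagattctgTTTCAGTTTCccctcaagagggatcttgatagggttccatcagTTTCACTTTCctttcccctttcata
IFIT5, chr10:89414508-89414563: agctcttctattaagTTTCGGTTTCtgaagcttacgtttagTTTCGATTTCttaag
IFIT1B, chr10:89377936-89378035: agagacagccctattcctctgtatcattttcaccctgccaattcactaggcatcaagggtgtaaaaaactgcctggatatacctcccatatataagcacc
Within the window from 250 bases before to 50 after the start, IFIT1 and both IFIT3 starts held 2 matches each. IFIT5 held 3, of which the third crosses the start used here and is not shown. The starts used were 89392623 for IFIT1, 89327997 and 89332529 for IFIT3 and 89414568 for IFIT5. These are not the GENCODE starts given above. Both IFIT3 stretches end inside GENCODE first exons, and the last match of the second stretch crosses the GENCODE start 89332484. The third IFIT5 match lies before the GENCODE start 89414586. All matches were in the reverse orientation. IFIT1B held 0. Of all 35116 promoters of the same length, 3.57% held at least 1 match and 0.259% at least 2. Among the other interferon-stimulated genes listed, 28 of the 42 with a promoter (66.7%) held one, against 4.38% of all 27305 genes. A match is a description of the letters and not of binding.

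IFIT1 had 2785 and 3712 reads in MCF10A GIRK1 replicates 1 and 2 (251 and 359 RPM). It had 12 and 16 reads in MCF10A eGFP (2.34 and 1.56 RPM) and 52 in WT replicate 2 (3.24 RPM). Both MCF10A GIRK1 libraries lay far above the 3 controls, the lower of them 77.3-fold above the highest control.

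IFIT2 had 751 and 1058 reads in MCF10A GIRK1 (67.6 and 102 RPM), 21 and 62 in MCF10A eGFP (4.10 and 6.06 RPM) and 135 in WT replicate 2 (8.42 RPM). The groups did not overlap, and the lower MCF10A GIRK1 library was 8.03-fold above the highest control.

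IFIT3 had 517 and 449 reads in MCF10A GIRK1 (46.5 and 43.4 RPM), 8 and 9 in MCF10A eGFP (1.56 and 0.879 RPM) and 38 in WT replicate 2 (2.37 RPM). Its MCF10A GIRK1 libraries were the closest together of the 4 genes, within 1.07-fold, and the lower was 18.3-fold above the highest control.

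IFIT5 had 601 and 733 reads in MCF10A GIRK1 (54.1 and 70.8 RPM), 27 and 78 in MCF10A eGFP (5.27 and 7.62 RPM) and 148 in WT replicate 2 (9.23 RPM). It showed the smallest gap, 5.86-fold between the lower MCF10A GIRK1 library and the highest control. Both MCF10A GIRK1 libraries were above all 3 controls for 21.6% of the 11779 genes tested, and at least 5-fold above for 0.424%; the 4 genes were selected on this contrast and nothing is read from their place in it.

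In the library labelled WT replicate 1, IFIT1 had 1 read, IFIT5 had 2 and IFIT2 and IFIT3 had 0, all under the 3-read limit of 1.20 RPM in that library. The genes were not detected there, and with its label in doubt these counts are not read as a level of the parental line. The upper ends of the 95% exact intervals were 1.47 RPM for IFIT2 and 2.88 RPM for IFIT5. Both lie below the lowest value of MCF10A eGFP and WT replicate 2, 4.10 and 5.27 RPM. For IFIT1 and IFIT3 the upper ends were 2.22 and 1.47 RPM, within the range of those controls. The cause was not tested. IFIT1B had 0 reads in all 6 libraries, including the MCF10A GIRK1 libraries, where 3 reads stand for 0.270 and 0.290 RPM.

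**Figure D1:**
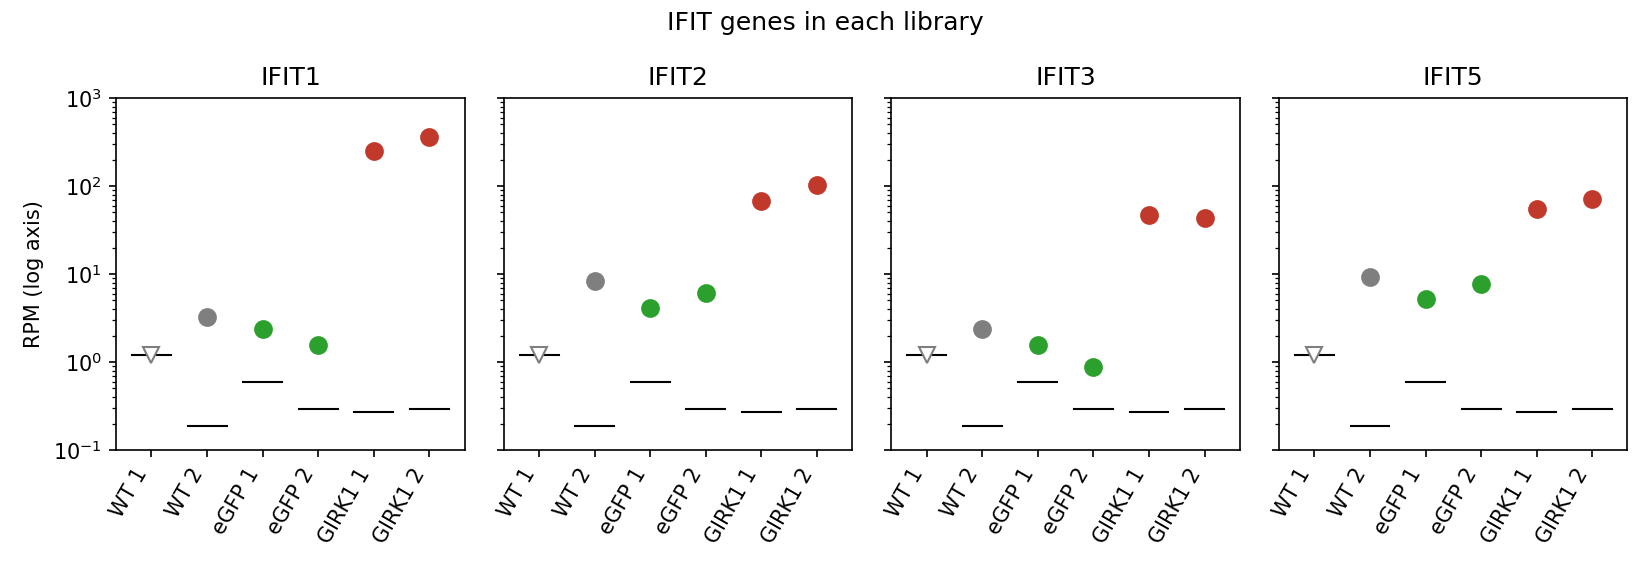
RPM (log axis) of the 4 IFIT genes in each library; black bars mark the 3-read limit of each library, open triangles at the bar mark WT replicate 1, with fewer than 3 reads, and filled circles are measured values. Both MCF10A GIRK1 circles lie above all 3 other circles for each gene, from 43.4 to 359 RPM against 0.879 to 9.23 RPM.

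The fitted log2 difference between MCF10A GIRK1 and MCF10A eGFP (edgeR) was 7.31 ± 0.39 (SE, n = 2 and 2) for IFIT1, 5.26 ± 0.37 for IFIT3, 4.003 ± 0.34 for IFIT2 and 3.22 ± 0.30 for IFIT5, with a median of 4.63. Against WT replicate 2, a single library assumed to vary like the others, the values were 6.57 ± 0.49, 4.26 ± 0.43, 3.36 ± 0.42 and 2.78 ± 0.37 in the same gene order, with a median of 3.81. The order of the 4 genes was the same against both controls, which share the MCF10A GIRK1 libraries. In the first comparison 4 of 4 passed the threshold, where 0.756% of all genes tested were higher, and in the second 3 of 4, where 0.195% were; the selection of the genes used these contrasts, so nothing is read from the counts. For IFIT2 the difference from MCF10A eGFP was 3.55 from forward reads and 4.55 from reverse reads, and for IFIT3 4.81 and 5.85.

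The comparison of the controls with each other was not the contrast by which the genes were chosen. Their counts in the controls were known at that choice, so this comparison is not independent of it. In MCF10A eGFP against WT replicate 2, the log2 differences were -0.73 ± 0.44 for IFIT1, -0.65 ± 0.38 for IFIT2, -0.99 ± 0.45 for IFIT3 and -0.44 ± 0.34 for IFIT5. None of the 4 passed the test, with an edgeR quasi-likelihood adjusted p of 0.953 for each, a value shared by many genes after Benjamini-Hochberg adjustment. Over all genes 0% passed in edgeR, where 418 had an unadjusted p under 0.05, and the DESeq2 test called 5. With 2 libraries against 1, a p that misses the threshold does not show equal levels.

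**Figure D2:**
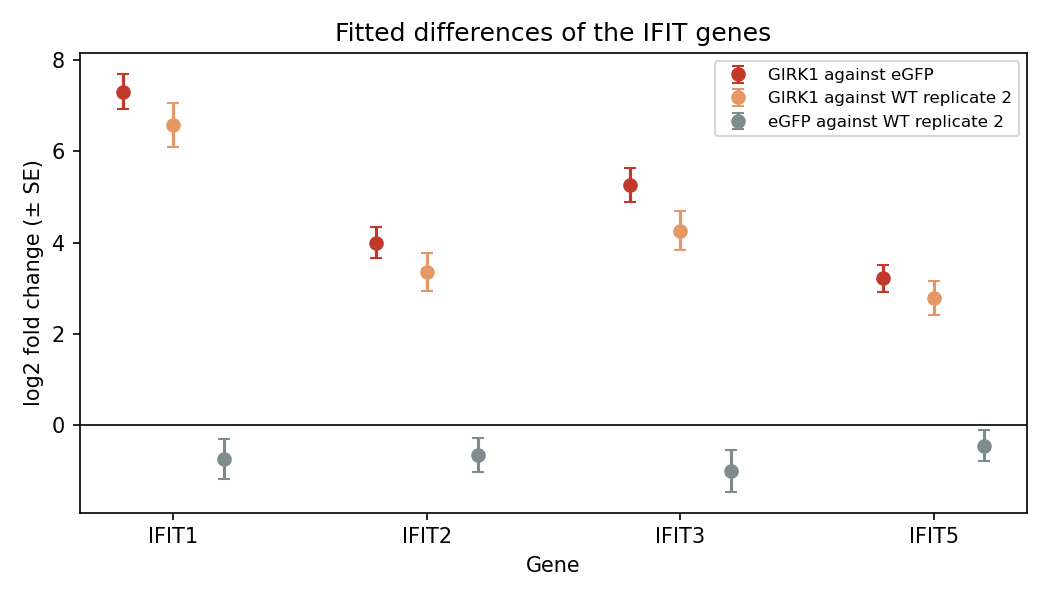
Fitted log2 fold changes (points, bars ± SE) of the 4 IFIT genes in the 3 comparisons. The differences from MCF10A eGFP run from 3.22 to 7.31 and those between the controls from -0.99 to -0.44.

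The make-up of the IFIT reads also differed between the groups. IFIT1 made up 59.8% (95% exact interval 58.4 to 61.3) and 62.4% (61.1 to 63.6) of the reads of the 4 genes in MCF10A GIRK1. It made up 17.6% (9.46 to 28.8) and 9.70% (5.64 to 15.3) in MCF10A eGFP and 13.9% (10.6 to 17.9) in WT replicate 2. IFIT5 went from 39.7%, 47.3% and 39.7% in eGFP replicates 1 and 2 and WT replicate 2 to 12.9% and 12.3% in MCF10A GIRK1. Since amplicons differ in efficiency, the shares describe the libraries against each other and not the ratio of the messengers. They follow from the unequal differences above and are no separate evidence.

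**Figure D3:**
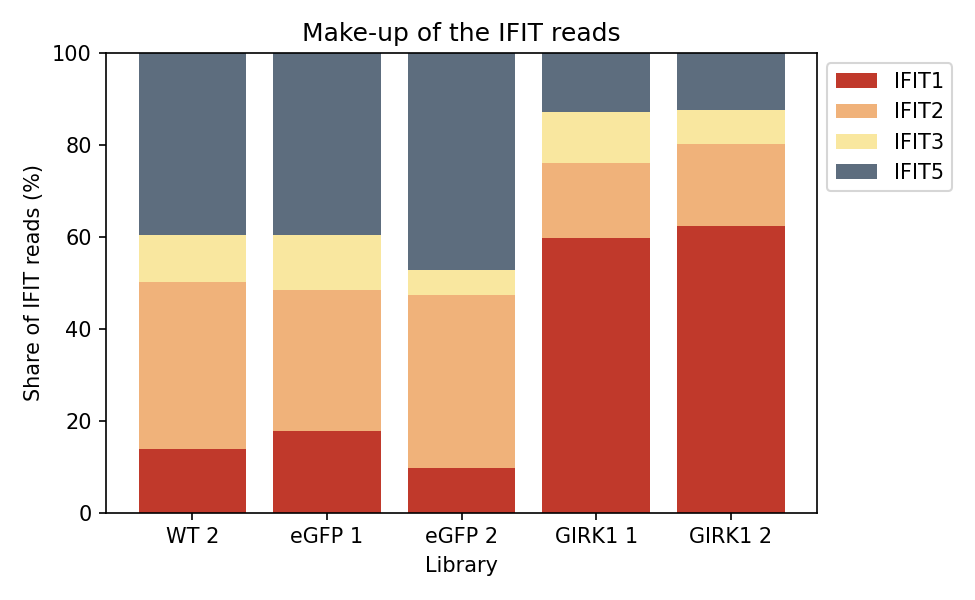
Share (%) of the reads of the 4 IFIT genes that each gene took, in the 5 libraries fitted. IFIT1 takes 59.8% and 62.4% in MCF10A GIRK1 and 9.70% to 17.6% in the controls.

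The genes upstream of the IFIT family were described from fixed lists in MCF10A GIRK1 against MCF10A eGFP, by the edgeR quasi-likelihood test. The lists were drawn up with earlier results of these data known, and 0.756% of all genes tested passed as higher. For the lists, rose and fell are said only of genes that passed this test. Of 21 interferon genes on the panel, 1 had enough reads to be tested, IFNE, an epithelial type I interferon, with a log2 difference of 0.07 ± 0.95 that did not pass. IFNB1 had 2 reads in each MCF10A GIRK1 library, 0 in both MCF10A eGFP libraries and 1 in WT replicate 2. IL29 (IFNL1), a type III interferon, had 2 and 5 reads in MCF10A GIRK1 and 0 in every other library. IL28A (IFNL2), also of type III, had 0 and 4 reads in MCF10A GIRK1 and 0 in every other library. These genes were named after their values were seen. Interferon messengers were thus at or near the limit of detection in all libraries, and the few reads of IL29 and IL28A were in MCF10A GIRK1 only.

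Of the 6 receptor genes, 5 were tested and 0 passed, with 2 positive and 3 negative differences. The type I receptor chains IFNAR1 and IFNAR2 had log2 differences of 0.08 ± 0.22 and -0.28 ± 0.25. The type II chains IFNGR1 and IFNGR2 had 0.92 ± 0.30 and -0.18 ± 0.23, and IL10RB, a chain of the type III receptor, had -0.09 ± 0.23. IL28RA (IFNLR1), its other chain, had at most 2 reads in any library.

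Of the ISGF3 genes, STAT2 rose from 30.04 and 30.68 RPM in MCF10A eGFP to 116.7 and 142.8 RPM in MCF10A GIRK1, with 28.18 RPM in WT replicate 2 (log2 difference from eGFP 2.06 ± 0.22, adjusted p = 0.0103). IRF9 rose by 3.16 ± 0.28 (adjusted p = 0.00471). Against WT replicate 2, IRF9 passed (adjusted p = 0.0302) and STAT2 did not (2.23, adjusted p = 0.0502). The kinases did not pass: JAK1 had 0.66 ± 0.21, JAK2 0.21 ± 0.43 and TYK2 -0.58 ± 0.30.

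Among 6 tested interferon regulatory factors 3 had positive differences and 1 passed, IRF7, which drives interferon genes. IRF7 rose from 1.95 and 4.01 RPM to 98.3 and 119 RPM (log2 difference 5.08 ± 0.35, edgeR quasi-likelihood adjusted p = 0.0021). Of 9 tested genes of RNA and DNA sensing, 4 rose and 0 fell. They were the cytoplasmic sensors DHX58 (3.41 ± 0.40), DDX58 (RIG-I, 3.33 ± 0.28) and IFIH1 (MDA5, 2.62 ± 0.37), and the endosomal receptor TLR3 (2.32 ± 0.39). In the comparison with WT replicate 2, 1 of the 9 passed, DDX58 (3.14, adjusted p = 0.0292), while DHX58 had 1.90 (adjusted p = 0.309), IFIH1 2.55 (adjusted p = 0.162) and TLR3 1.91 (adjusted p = 0.360). USP18, an inhibitor of signalling at the type I receptor, rose by 2.84 ± 0.29 (adjusted p = 0.00764), as 1 of 2 feedback inhibitors tested. It had 2.77 against WT replicate 2 and did not pass (adjusted p = 0.0502).

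Of 47 other interferon-stimulated genes tested, 32 rose, 0 fell and 15 did not pass, with a median log2 difference of 2.45 beside 0.02 over all genes tested. With 3 genes that had 0 reads in both MCF10A eGFP libraries set to their bound, the median was 2.44. IFI6, a mitochondrial protein, rose by 8.28 ± 0.58, OAS2, an oligoadenylate synthetase, by 7.62 ± 0.45, IFI27 by 7.10 ± 0.61, IFI44L by 6.41 ± 0.38, RSAD2 (viperin) by 6.37 ± 0.53 and ISG15, a ubiquitin-like modifier, by 5.24 ± 0.32. CMPK2, a nucleotide kinase, had 204 and 145 reads against 0 and 1 in MCF10A eGFP. SAMD9L had 37 and 53 reads against 0 and 0, at least 7.22-fold higher by the mean against 3 reads in the shallower eGFP library. It had 6 reads in WT replicate 2, with a log2 difference of 3.48 ± 0.84 from that library. The smallest differences tested were those of LGALS3BP (0.32 ± 0.28) and IFITM2 (0.52 ± 0.65), neither of which passed. Against WT replicate 2, a single library, all 47 had positive log2 differences, with a median of 2.57.

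Of 7 tested genes induced mainly by interferon gamma, 6 had positive differences, with a median log2 difference of 1.24. With 1 gene that had 0 reads in both MCF10A eGFP libraries set to its bound, the median was 0.95. The 1 gene that passed was GBP1, a guanylate-binding protein, which rose by 2.24 ± 0.31 (edgeR quasi-likelihood adjusted p = 0.025). It had 2.67 against WT replicate 2 and did not pass (adjusted p = 0.0816). Over all lists, 42 of 89 genes tested rose in MCF10A GIRK1 against MCF10A eGFP, beside 0.756% of all genes tested. With WT replicate 1 added to the fit, 0 of 86 did, and 36 had an unadjusted p under 0.05.

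The genes whose products mark the cap or work with IFIT proteins in translation did not pass, 0 of 6 tested. FTSJD2 (CMTR1), which methylates the first nucleotide after the cap, had a log2 difference of 1.06 ± 0.22 (adjusted p = 0.0738). FTSJD1 (CMTR2), which methylates the second, had 0.00 ± 0.33, the cap methyltransferase RNMT -0.09 ± 0.23 and its activator FAM103A1 (RAMAC) 0.03 ± 0.33. The initiation factors EIF3E and EIF4E had -0.06 ± 0.22 and 0.03 ± 0.22, and EIF3C had 0 reads in all libraries.

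**Figure D4:**
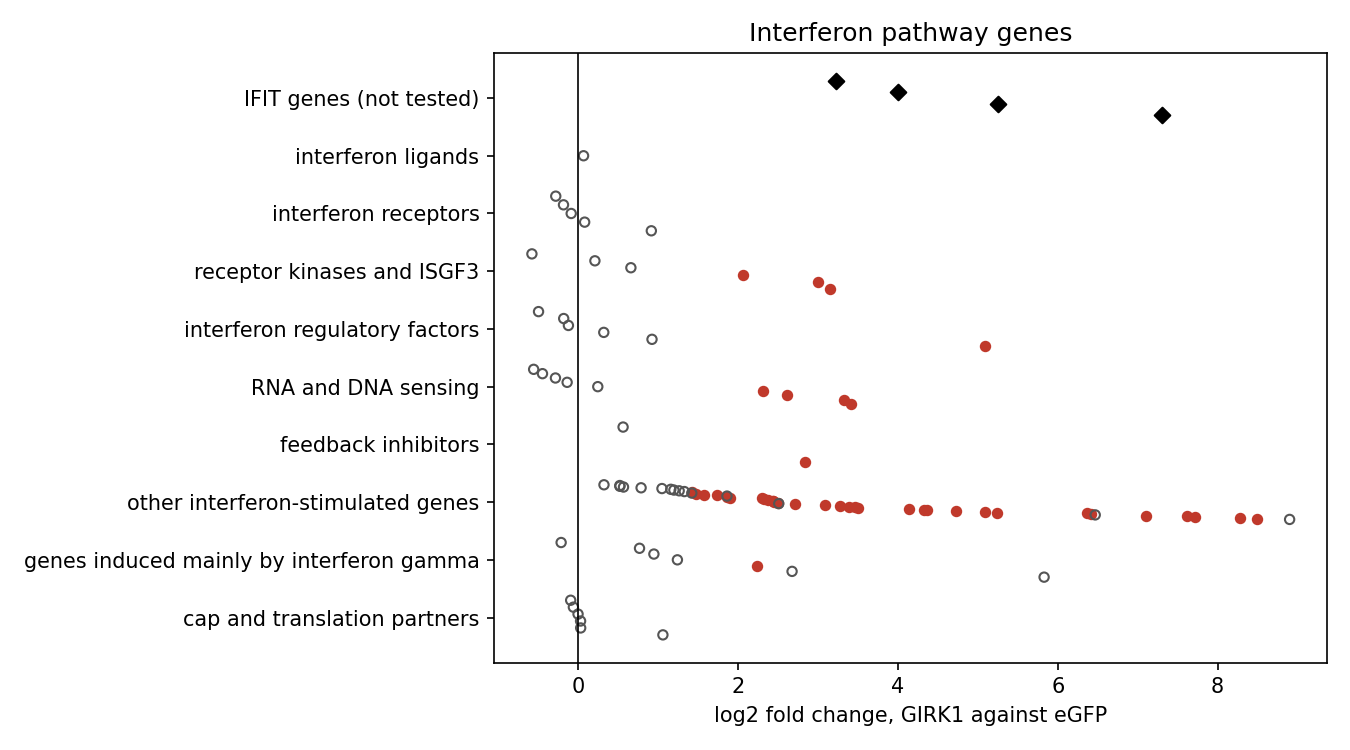
Log2 fold change in MCF10A GIRK1 against MCF10A eGFP for each gene of the fixed lists; red circles passed the edgeR test, open circles did not, and black diamonds are the 4 IFIT genes, shown without a test. Of the other interferon-stimulated genes 32 of 47 are red, and 0 of 5 receptor genes; open or red circles of genes with 0 eGFP reads have fitted values that are no bound.

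The genes beside the IFIT genes on chromosome 10 gave no call. Of the 5 panel genes nearest on each side, 8 were tested, 0 passed the edgeR test, and their log2 differences ran from -0.97 to 0.42. On the IFIT2 side, the death receptor gene FAS had 109 and 105 RPM in MCF10A GIRK1 and 77.0 and 88.3 RPM in MCF10A eGFP (0.33 ± 0.20). The smooth muscle actin gene ACTA2 (-0.02 ± 0.21), STAMBPL1 (0.42 ± 0.24) and ANKRD22 (-0.61 ± 0.96) lie further out, and CH25H had 4 reads in 1 library and 0 in the others. On the IFIT5 side, SLC16A12 had 0 reads in all libraries, and PANK1, a pantothenate kinase gene, had -0.50 ± 0.47. The mitotic kinesin gene KIF20B had -0.97 ± 0.34, HTR7 -0.10 ± 0.55 and RPP30 0.12 ± 0.39. LIPA, the lysosomal acid lipase gene, whose annotated span overlaps the IFIT genes on the opposite strand, had 0.26 ± 0.21; it was added because of this overlap, after its values were seen.

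**Figure D5:**
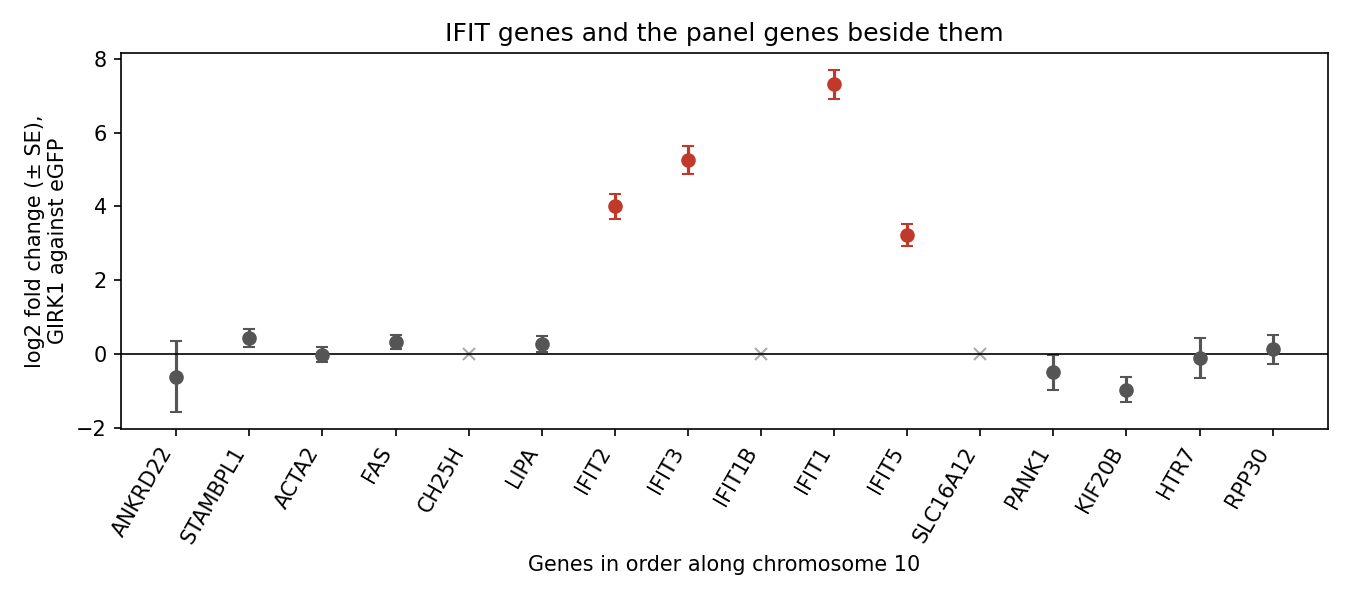
Log2 fold change (± SE) in MCF10A GIRK1 against MCF10A eGFP for the IFIT genes (red) and the panel genes beside them (grey), in their order along chromosome 10 and not to scale; crosses at 0 mark genes not tested. The 4 red points lie between 3.22 and 7.31 and the tested neighbours between -0.97 and 0.42.

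The patterns most like that of the IFIT genes were found by the root mean square difference of log2(RPM + 0.5), centred over the 5 libraries, as a description with no test. Nearest to the mean of the 4 genes were IFI44 (0.17), HERC6 (0.22), KLHDC7B (0.29), ISG15 (0.33) and IRF7 (0.34). IFI44 had 267 and 282 RPM in MCF10A GIRK1 and 8.58 to 14.0 RPM in the 3 controls. For IFIT1 alone the nearest were OAS2 (0.23), IFI44L (0.73) and IFI6 (0.84), and for IFIT3 IFI44 (0.34), HERC6 (0.34) and UBA7 (0.39). For IFIT2 they were DDX58 (0.28), UBA7 (0.28) and SP110 (0.32), and for IFIT5 DDX58 (0.15), SATB1 (0.17) and SAMD9L (0.20). The last 2 had under 6 RPM in every library, where the added 0.5 RPM shrinks the difference. Among the 4 genes themselves, IFIT2 and IFIT5 were closest (0.35) and IFIT1 and IFIT5 farthest apart (1.85).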

How the data were processed

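Reads were mapped by the authors with the AmpliSeq RNA workflow of the Ion Torrent suite to the AmpliSeq human transcriptome reference (tool versions are not given in the sources used here). The deposited read counts are whole numbers for each of 20812 amplicons, of which 10 are spike-ins with 0 reads in all libraries. The RPM values, also computed by the authors, scale these counts to a fixed library total. The levels of isoforms cannot be compared, nor can the transgene be told from endogenous KCNJ3. How reads of near-identical copies were assigned is not stated.

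Groups came from the sample titles. Counts of 5 libraries (WT replicate 1 left out) were fitted in 3 groups with edgeR 4.0.16 in R 4.3.3 (TMM, filterByExpr with 11779 genes kept, glmQLFit, glmQLFTest, Benjamini-Hochberg threshold 0.05). Standard errors came from the F value. The residual degrees of freedom were 2. DESeq2 1.42.0 was an alternative. The code was tested on simulated data. Amplicons were compared with GENCODE transcripts by BLAST 2.17.0, and coding sequences were aligned with Biopython 1.88.

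The members, lists and tests were chosen with earlier results of these data known. Genes named were the 4 IFIT genes, IFIT1B, KCNJ3, 5 neighbours on each side, whole lists of receptors, kinases with ISGF3 and cap partners, of each other list at most the 8 largest changes that passed, the 3 smallest in the interferon-stimulated list, and the nearest patterns. Where a name is outside this rule the text says so, and some items the rule names are not reported here. The alternatives were other scalings, filters and tests, other sets of libraries, reads of 1 strand, a replicate block and leaving out each replicate.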

Additional observations from a re-analysis of the deposited data

Results flagged for a closer look

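KCNJ3, the gene overexpressed in MCF10A GIRK1, was measured at 19.2 RPM (48 reads) in the library labelled WT replicate 1. That library was outside the comparisons. KCNJ3 had 0 reads in WT replicate 2 and in both MCF10A eGFP libraries. The label of WT replicate 1 is in doubt, with 2 reads of the basal gene KRT5 and 12796 of the luminal gene TFF1. Its KCNJ3 reads are therefore not read as a level of the parental line. The IFIT genes had 0 to 2 reads in the same library, under its limit of detection of 1.20 RPM. Nothing about KCNJ3 and the IFIT genes in MCF10A cells is read from these counts.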

How the results depend on the processing

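The positive differences of the 4 IFIT genes from MCF10A eGFP and from WT replicate 2 kept their direction under every alternative that gave a value. Their median was 4.63 against MCF10A eGFP, with 4.18 from forward and 5.20 from reverse reads. Against WT replicate 2 the median was 3.81, with 3.52 and 4.16. With all 6 libraries, where both WT replicates form the WT group, the median against that group was 4.52. Without 1 replicate the medians ran from 4.47 to 4.75 and from 3.65 to 3.93. In MCF10A eGFP against WT, IFIT2 and IFIT5 turned to 0.14 and 0.28 with all 6 libraries.

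The counts of all genes called depended on the setting. In the fits of all 6 libraries, the WT group held both WT replicates and not replicate 2 alone. Against MCF10A eGFP, 188 became 865 with no filter, 107 with at least 10 reads in every library, 677 by DESeq2, 0 with all 6 libraries (599 unadjusted) and 1309 by the 2-fold and coefficient of variation rule. Against WT replicate 2, 27 became 133, 16, 128 and 0 (650 unadjusted) under the first 4 of these. Between the controls, 0 became 6 with no filter and 5 by DESeq2. Leaving out 1 replicate gave 159 to 2997, 34 to 576 and 5 to 1268 genes. The highest were 2997 and 1268 without eGFP replicate 2 and 576 without eGFP replicate 1, where a lone eGFP library was assumed to vary like the others. Of the pathway genes, 42 became 0 with all 6 libraries, and 38 to 58 without 1 replicate.

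The replicate differences of eGFP and GIRK1 correlated at 0.19 over 9212 genes, a single pair that shares only a number. With a replicate block, 549, 77 and 1 genes were called in the 3 comparisons. Of the 5 genes with the nearest pattern, 1 was shared with all 6 libraries. The cause was not tested in any case. Nothing against WT replicate 2 could be fitted without it. Depth limits the low counts, such as the 8 and 9 reads of IFIT3 in MCF10A eGFP.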
